A study of Mus musculus with 6 samples.

Results

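The genes described here are 9 that are tied to follicular helper and follicular regulatory T cells: the cytokine gene Il21, the secreted inhibitor Sostdc1, the transcription factor genes Bcl6, Ascl2 and Cebpa, the chemokine receptor gene Cxcr5, the signalling adaptor gene Sh2d1a, and Il6ra and Il6st, which encode the interleukin-6 receptor and its signal-transducing chain gp130. They were chosen by symbol, and all 9 were found among the 24424 genes of a deposited count table and the 23393 genes of a deposited normalized table. Regulatory T cells, which express Foxp3 and hold immune responses in check, had been sorted from mouse spleen and lymph nodes and their RNA sequenced. The count table held 3 groups of 2 libraries. The WT group was labelled Bcl11bF/F with no Cre, at steady state. The KO group, also at steady state, and the KO EAE group were labelled as Bcl11b knockouts of the strain Bcl11bF/WT Foxp3YFP-Cre +/-, a Cre reporter that the Foxp3 locus drives. EAE in this field means experimental autoimmune encephalomyelitis, used to model multiple sclerosis. T cells need the zinc finger factor Bcl11b for their identity. Cre was named in the KO and KO EAE labels alone, so effects of Cre and of Bcl11b removal cannot be told apart, and the strain label names 1 floxed and 1 wild-type allele where the genotype label says KO. No WT library with EAE was analysed here. Neither the ages of the mice nor the sort gate were stated in the sources used here, and nothing in the labels says whether 2 libraries of a group came from different mice, so p-values measure the spread between these libraries, which may be technical.

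Follicular helper T cells sit beside B cells in lymphoid follicles and help them to form germinal centres, and follicular regulatory T cells are their restraining counterpart. Bcl6 is the defining transcription factor of both, CXCR5 guides the cells into the follicle, ASCL2 can switch Cxcr5 on, and the adaptor SAP, the product of Sh2d1a, carries signals of SLAM receptors during contact with B cells. Interleukin-21 is the cytokine by which follicular helper cells act on B cells, and interleukin-6, read through Il6ra and gp130, and interleukin-21 itself both signal through STAT3. Sostdc1 encodes a secreted antagonist of BMP and WNT signals that follicular T cells can make. C/EBP-alpha, the product of Cebpa, is best known as a factor of the myeloid lineage.

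Promoter sequences are shown for the members that moved most or whose window held several motif matches, from RefSeq on GRCm38.p6; 6 of the 9 members had an entry (not Sostdc1, Cxcr5 and Sh2d1a). Each run is the 250 bases before an annotated start site, 5′ to 3′ on the gene's strand. Capitals mark matches on either strand to NFAT-type GGAAAA, STAT-type TTCNNNGAA or the TATA box TATAAA, and the motifs C/EBP-type TTGCNNNAA, AP-1-type TGANTCA and the E-box CAGCTG were searched as well and had no match in these 4 windows. The Il21 window lies at chr3:37232637-37232886 (minus strand), the second Bcl6 window at chr16:23981284-23981533 (minus strand), the Cebpa window at chr7:35119043-35119292 (plus strand) and the Ascl2 window at chr7:142969265-142969514 (minus strand).
Il21: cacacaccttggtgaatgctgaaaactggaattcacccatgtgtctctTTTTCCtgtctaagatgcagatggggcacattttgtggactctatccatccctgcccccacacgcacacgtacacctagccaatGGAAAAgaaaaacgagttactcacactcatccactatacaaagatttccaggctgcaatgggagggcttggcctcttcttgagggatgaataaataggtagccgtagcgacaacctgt
Bcl6, second start: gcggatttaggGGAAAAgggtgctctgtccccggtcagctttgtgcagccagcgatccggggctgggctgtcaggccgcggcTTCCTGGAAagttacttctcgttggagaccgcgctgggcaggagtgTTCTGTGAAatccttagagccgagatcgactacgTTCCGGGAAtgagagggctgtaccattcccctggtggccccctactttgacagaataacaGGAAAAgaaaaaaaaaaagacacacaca
Cebpa: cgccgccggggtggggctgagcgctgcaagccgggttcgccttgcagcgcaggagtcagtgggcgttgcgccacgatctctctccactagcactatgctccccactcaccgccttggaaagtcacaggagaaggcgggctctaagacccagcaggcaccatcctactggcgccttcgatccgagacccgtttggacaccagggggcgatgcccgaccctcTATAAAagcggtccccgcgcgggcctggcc
Ascl2: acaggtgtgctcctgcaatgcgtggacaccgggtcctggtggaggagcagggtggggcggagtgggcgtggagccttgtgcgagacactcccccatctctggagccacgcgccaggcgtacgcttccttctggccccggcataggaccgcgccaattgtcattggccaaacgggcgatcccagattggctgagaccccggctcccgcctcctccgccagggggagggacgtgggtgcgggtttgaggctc
The Bcl6 window held 3 STAT-type matches, TTCCTGGAA, TTCTGTGAA and TTCCGGGAA, where 7.02% of the 32851 promoter windows of the same length held at least 1 and 9 windows (0.0274%) held 3 or more. It and the Il21 window each held 2 NFAT-type matches, as did 2.85% of windows at that number or more. The Cebpa window held a TATA box, found in 12.4% of windows, and the Ascl2 window held no match. Of the windows not shown, the first Bcl6 window held 1 STAT-type match and those of Il6ra and Il6st held no match to any of the 6 motifs. A match is a run of letters and no evidence of binding, and no binding was measured in these samples.

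Among counted reads, 3 of the 9 members rose in KO cells and none fell: Il21, Sostdc1 and Cebpa. Over all 14548 genes tested, 9.41% rose and 3.46% fell by the same rule, an adjusted p under 0.05 by edgeR's quasi-likelihood test with Benjamini-Hochberg adjustment. The median log2 change of the 9 members was 0.54, against -0.01 over all genes tested. The members were chosen with earlier results of these data known, so setting them against all genes is no test of the set. The same 3 members were called in KO EAE against WT, where 9.36% of genes were called (7.41% rose, 1.95% fell), and these comparisons share the WT libraries. KO EAE and WT libraries lay apart for 6 members higher and 2 lower, against 60.6% of all genes (29.8% higher, 30.7% lower). KO and WT libraries lay apart for 8 of 9 members, 5 higher and 3 lower in KO, but so they did for 65.2% of all genes tested (32.7% higher, 32.5% lower). A normalized table, which lists other values under the WT and KO library names, called none of these 3 genes and is described after the count table.

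**Figure D1:**
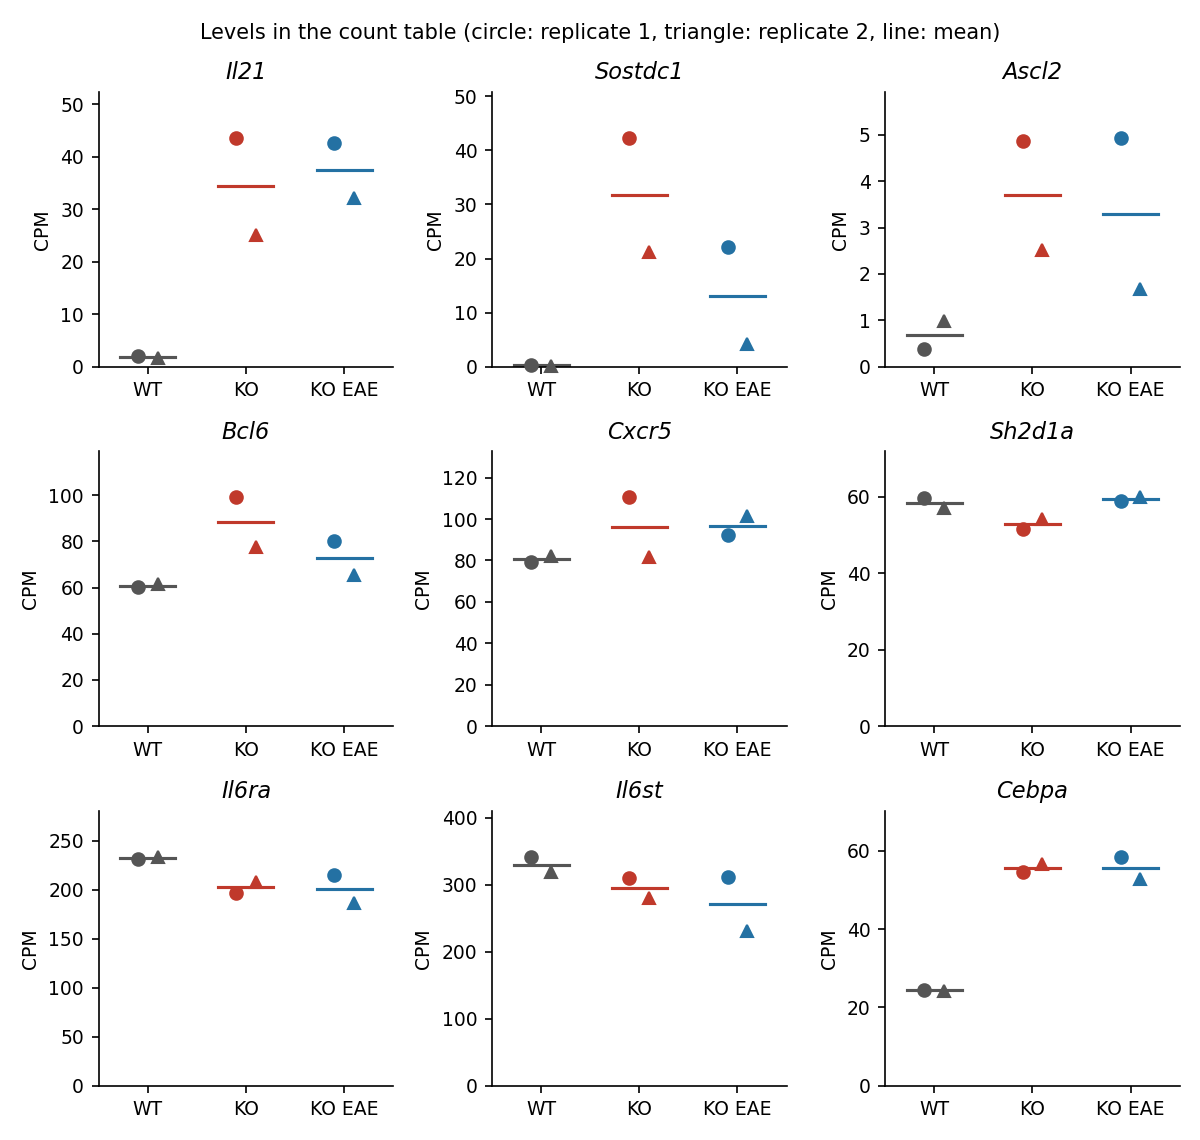
Levels of the 9 members in the 6 libraries of the count table, in counts-per-million after TMM scaling, each panel on its own axis from 0. Circles are replicate 1, triangles replicate 2 and lines the group mean; Il21, Sostdc1 and Cebpa are higher in all 4 KO and KO EAE libraries than in both WT libraries.

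Il21 (chromosome 3, 37222759 to 37232636, minus strand, mm10) was close to silent in the WT libraries of the count table and clearly read in its KO libraries. In counts-per-million (CPM) after TMM scaling, WT replicates 1 and 2 had 1.94 and 1.71, KO replicates 43.6 and 25.1, and KO EAE replicates 42.7 and 32.1. Those levels rest on 31 and 28 reads in WT against 769 and 368 in KO and 665 and 500 in KO EAE. Every KO and KO EAE library lay far above both WT libraries, and the KO and KO EAE ranges overlapped. KO exceeded WT by 4.23 ± 0.35 on the log2 scale (SE; edgeR, adjusted p = 0.000755), an 18.8-fold rise, and KO EAE exceeded WT by 4.35 ± 0.35 (adjusted p = 0.000872). Both calls held in each of the 6 fits that left out 1 library. An antisense gene, Gm12534, overlaps Il21 in the annotation, and since no strand setting is stated, reads of the pair cannot be told apart.

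Sostdc1 (chromosome 12, 36314139 to 36318452, plus strand) had the second largest change in size of all genes tested from WT to KO. WT replicates 1 and 2 had 5 and 3 reads, or 0.312 and 0.183 CPM, near the limit of 3 reads that counting error sets (0.170 to 0.204 CPM). The levels were 42.3 and 21.2 CPM in the KO replicates and 22.1 and 4.10 CPM in those of KO EAE. All 4 of these lay above WT, and KO EAE replicate 1 had 5.39 times the level of replicate 2. Summed over libraries, the KO level was 132 times that of WT, with a 95% counting interval of 67.0 to 308 that leaves out the spread between libraries. The fitted log2 change was 6.96 ± 1.08 for KO against WT (edgeR, adjusted p = 0.0101) and 5.68 ± 1.08 for KO EAE against WT (adjusted p = 0.0263). The KO call was lost without WT replicate 1, WT replicate 2 or KO replicate 1 (adjusted p = 0.0661, 0.0667 and 0.0583), and the KO EAE call without any 1 of the WT or KO libraries (adjusted p 0.0674 to 0.139) or in a fit of the KO EAE and WT libraries alone (adjusted p = 0.0740). The KO EAE change was 4.004 without KO EAE replicate 1 and 6.44 without KO EAE replicate 2.

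Bcl6 and Ascl2, the transcription factors of the follicular programme, were higher in KO libraries without passing the test. Bcl6 (chromosome 16, 23965052 to 23988852, minus strand) had 60.2 and 61.5 CPM in WT, 99.1 and 77.4 in KO, and 80.3 and 65.5 in KO EAE. Both KO libraries exceeded both WT libraries, by a log2 change of 0.54 ± 0.15 (edgeR, adjusted p = 0.0684), and KO EAE replicate 2 lay just above WT (KO EAE against WT 0.26 ± 0.15, adjusted p = 0.317). DESeq2 called the KO difference (adjusted p = 0.0238), and so did edgeR on the 4 WT and KO libraries alone (adjusted p = 0.0379). Ascl2 (chromosome 7, 142966829 to 142969264, minus strand) was the scarcest member in KO cells, with 6 and 16 reads in WT, 86 and 37 in KO, and 77 and 26 in KO EAE. In CPM these were 0.375 and 0.978, 4.87 and 2.52, and 4.94 and 1.67. All KO and KO EAE libraries were above WT, yet replicates differed by up to 2.96 times and the change of 2.44 ± 0.74 was not called (adjusted p = 0.0876; DESeq2 adjusted p = 0.0153).

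Cxcr5 and Sh2d1a, the homing receptor and the adaptor of contact with B cells, showed no called difference. Cxcr5 (chromosome 9, 44511787 to 44561877, minus strand) had 79.2 and 82.1 CPM in WT, 111 and 81.7 in KO, and 92.1 and 101 in KO EAE. KO replicate 2 fell within the WT range, and the log2 change of 0.25 had a 95% interval of -0.10 to 0.61 (edgeR, adjusted p = 0.315). The gene Bcl9l overlaps Cxcr5 on the other strand with 3160 to 4312 reads a library, against 1199 to 1950 for Cxcr5, so the split of reads between them is uncertain. Sh2d1a (chromosome X, 42502453 to 42529330, plus strand) had 59.7 and 57.0 CPM in WT, 51.6 and 54.1 in KO, and 58.8 and 59.8 in KO EAE. Its KO libraries were slightly below WT and its KO EAE libraries were not (KO against WT -0.14, interval -0.33 to 0.04, adjusted p = 0.28).

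The interleukin-6 receptor chains were among the most abundant members, and neither passed the test. Il6ra (chromosome 3, 89864059 to 89913196, minus strand) had 232 and 234 CPM in WT, 196 and 208 in KO, and 215 and 187 in KO EAE. All 4 KO and KO EAE libraries were below WT by a small margin, a log2 change of -0.20 ± 0.09 for KO against WT (edgeR, adjusted p = 0.207). Il6st (chromosome 13, 112464070 to 112510086, plus strand) had 342 and 319 CPM in WT, 311 and 281 in KO, and 312 and 230 in KO EAE, with KO against WT at -0.16 ± 0.15 (adjusted p = 0.547). KO EAE replicate 2 was the lowest library for both chains. KO EAE against WT gave -0.21 for Il6ra and -0.28 for Il6st, neither called (edgeR, adjusted p = 0.202 and 0.294). These values rest on single libraries: without KO EAE replicate 1 they were -0.32 and -0.53 and called (adjusted p = 0.0316 and 0.0223), and without KO EAE replicate 2 they were -0.11 and -0.0795 (adjusted p = 0.587 and 0.793).

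Cebpa (chromosome 7, 35119293 to 35121928, plus strand) rose with the closest replicates of all called members. It had 24.6 and 24.3 CPM in WT, 54.5 and 56.8 in KO, and 58.5 and 52.7 in KO EAE. The KO and KO EAE libraries overlapped each other and lay at more than double the level of WT, with log2 changes of 1.19 ± 0.09 in both comparisons with WT (edgeR, adjusted p = 0.000619 for KO and 0.000803 for KO EAE). Both calls held in each of the 6 fits without 1 library. An antisense gene, Gm45091, overlaps Cebpa in the annotation. Myeloid markers moved the same way: 16 of 21 rose from WT to KO, and their summed level was 294 and 315 CPM in WT, 1932 and 2320 in KO, and 1685 and 2005 in KO EAE. None of the 21 was at 0 in both libraries of any group, and their part in the Cebpa result was not tested.

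**Figure D2:**
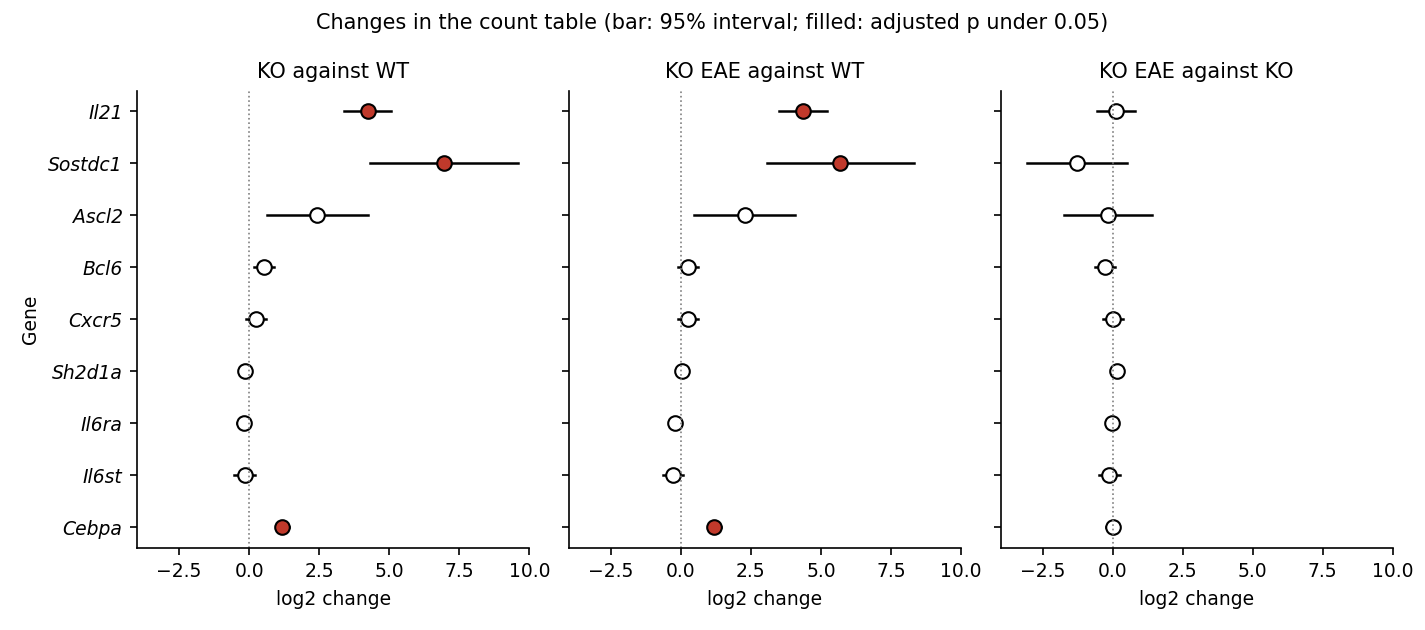
Log2 changes of the 9 members in the 3 comparisons of the count table, from edgeR fitted to 6 libraries. Points are estimates, bars 95% intervals and filled points adjusted p under 0.05: Il21, Sostdc1 and Cebpa are filled in both comparisons with WT, and no member is filled in KO EAE against KO.

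EAE was not accompanied by a called change of any member among KO cells. Of the 9 members, 0 were called in KO EAE against KO by edgeR, 0 had an unadjusted p under 0.05 and 0 were called by DESeq2. By edgeR 0.0137% of all genes were called, which are Nr4a3 and Dusp4, named here after their values were seen (log2 changes 1.10 and 1.15, adjusted p = 0.0455 for each), and 9.47% had an unadjusted p under 0.05. Groups did not overlap for 1 member, Sh2d1a, which was higher in both KO EAE libraries (0.17 ± 0.08, adjusted p = 0.554), against 38.3% of all genes (16.9% higher, 21.4% lower). The widest interval was that of Sostdc1, whose log2 change of -1.28 had bounds of -3.05 and 0.50 (adjusted p = 0.6); it was -2.95 without KO EAE replicate 1 (adjusted p = 0.0598) and -0.53 without KO EAE replicate 2. Il21 differed by 0.12 with bounds of -0.57 and 0.81, and Cebpa by 0.00 with bounds of -0.22 and 0.22.

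Per length of the gene (RPKM, that is CPM per kilobase of annotated exon), the order of the members differed between WT and KO cells. In WT, Il6st led with a mean of 29.8 RPKM, followed by Il6ra at 26.9, Cxcr5 at 24.2, Sh2d1a at 10.6, Cebpa at 9.26 and Bcl6 at 9.08. Ascl2 at 0.417, Il21 at 0.347 and Sostdc1 at 0.139 RPKM were far below, and the libraries of Ascl2 and Il21 overlapped. In KO, Cxcr5 at 28.9 and Il6st at 26.6 overlapped, then came Il6ra at 23.4, Cebpa at 21.1, Sostdc1 at 17.8, Bcl6 at 13.2, Sh2d1a at 9.60, Il21 at 6.53 and Ascl2 at 2.28 RPKM. Sostdc1 overlapped both of its neighbours in that order. In KO EAE the order was Cxcr5, Il6st, Il6ra, Cebpa, Bcl6, Sh2d1a, Sostdc1, Il21 and Ascl2, with means from 29.0 down to 2.04 RPKM. There only Cebpa and Bcl6, and Il21 and Ascl2, were neighbours whose libraries did not overlap.

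Within the KO and the KO EAE group, Il21, Sostdc1, Ascl2, Bcl6 and Il6st were each higher in replicate 1 than in replicate 2, and in all 6 of 9 members were in KO and 7 of 9 in KO EAE. In KO, replicate 1 had 1.74 times the CPM of replicate 2 for Il21, 1.998 times for Sostdc1, 1.93 times for Ascl2, 1.28 times for Bcl6, 1.11 times for Il6st and 1.35 times for Cxcr5. In KO EAE these ratios were 1.33, 5.39, 2.96, 1.23, 1.35 and 0.909. Cebpa did not share this order, with ratios of 0.960 and 1.11. Myeloid markers ran the other way, with 3 of 21 higher in replicate 1 in KO and 1 of 21 in KO EAE, and so did B cell markers, with 0 of 13 and 2 of 13, while 46.6% and 52.5% of all genes tested were higher in replicate 1. Of the 28 other genes of the follicular programme, 14 were higher in replicate 1 in KO and 18 in KO EAE.

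**Figure D3:**
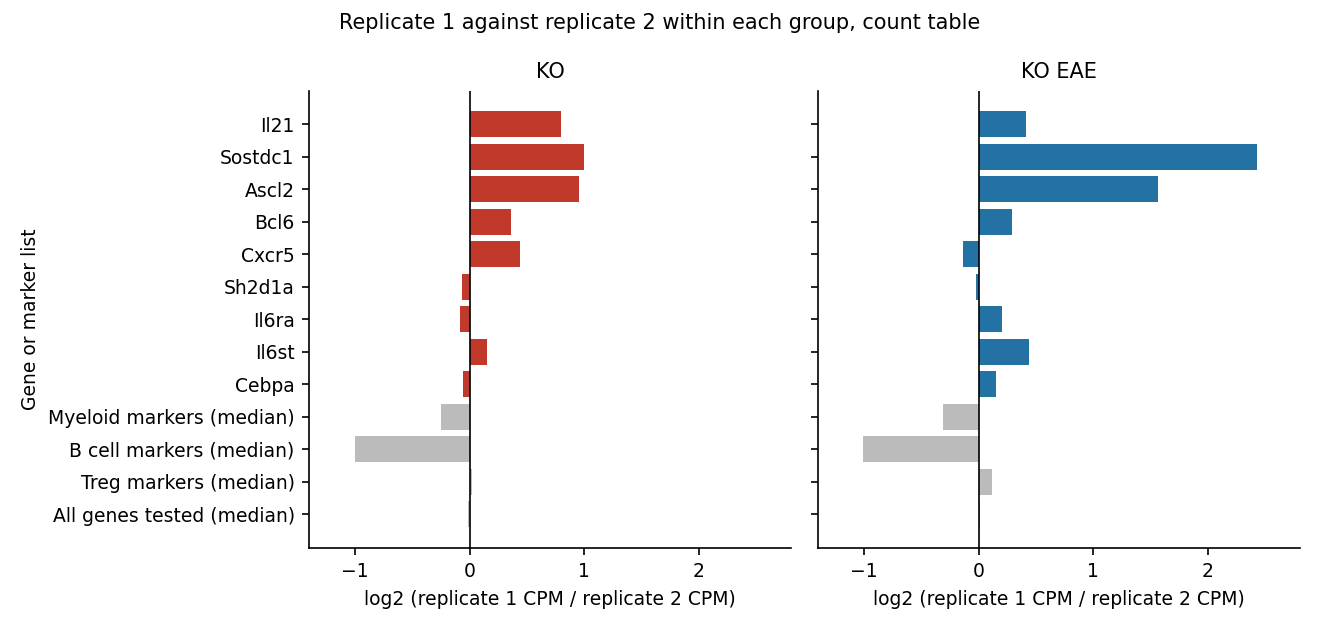
Log2 ratio of CPM in replicate 1 to replicate 2 in KO and in KO EAE for each member (colored bars) and, as medians, for marker lists and all genes tested (grey bars). Il21, Sostdc1, Ascl2, Bcl6 and Il6st are to the right of 0 in both groups, and the myeloid and B cell markers are to the left.

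By the root mean square difference between centred log2 profiles over the 6 libraries, the 5 genes most like Il21 among 13131 with a mean of at least 1 CPM were Gas6 (0.27), Gm13710 (0.28), Nxpe5 (0.36), Pparg (0.37) and Adap2 (0.37). Those most like Sostdc1 were less close: Col14a1 (0.70), Tspan15 (0.79), Spp1 (0.83), Agap1 (0.83) and 1810009J06Rik (0.85). Lhpp (0.07), Apoe (0.09), Klhl5 (0.10), Mical2 (0.11) and Selenbp2 (0.11) were most like Cebpa. Col14a1, Spp1 and 1810009J06Rik shared with Sostdc1 the lower level in replicate 2 of KO and of KO EAE. Spp1 had 13.4 and 6.13 CPM in KO and 10.01 and 3.01 in KO EAE. For Col14a1 the gap was small in KO (137 and 130 CPM) and wider in KO EAE (87.8 and 61.05).

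Beyond the members, 28 other genes of the follicular programme were measured, and from WT to KO 4 rose and 2 fell, with a median log2 change of 0.14; 12.9% of all genes were called. Pou2af1, a coactivator that B cells also use, rose by 1.84 ± 0.20 (from 11.8 and 10.1 CPM to 42.6 and 35.6; edgeR, adjusted p = 0.00253). Il4, the other helper cytokine of follicular T cells, rose by 3.50 ± 0.56 from 0.125 and 0.367 CPM in WT to 2.21 and 3.54 in KO, and Cd40lg, the ligand that licenses B cells, by 0.82 ± 0.15 from 43.2 and 56.4 to 81.7 and 93.8 CPM. Slamf1, a receptor that signals through SAP, fell by 0.80 on the log2 scale, from 115 and 117 to 58.4 and 74.8 CPM. Outside the naming rule, the remaining called genes are Pdcd1 at 0.74 ± 0.15 and Irf4 at -0.69 ± 0.07. Both were named after their values were seen. Limma on the normalized table called 0 of these 28 genes, with a median log2 change of -0.05. Pou2af1, Il4 and Pdcd1 had -0.18, -0.10 and -0.43 there, the opposite sign to the count table. Cd40lg and Slamf1 kept their sign, at 0.70 and -0.19. Without 1 WT or KO library the calls of Cd40lg and Pdcd1 were lost in 3 of 4 fits, and those of Il4 and Slamf1 in 2 of 4.

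Genes that oppose the follicular fate, or mark cells outside it, moved both ways: of 15 measured, 2 rose and 3 fell from WT to KO, with a median log2 change of -0.18. Over all genes tested 9.41% rose and 3.46% fell. Il2ra, whose interleukin-2 signal restrains Bcl6, fell by 0.87 on the log2 scale (from 351 and 332 CPM to 186 and 189; edgeR, adjusted p = 0.000829). Tbx21, the Th1 factor, rose by 2.34 ± 0.29 (adjusted p = 0.00381) and Id2, an inhibitor of E proteins, by 0.74 ± 0.10 (adjusted p = 0.0053). Stat5a, named after its value was seen, also fell (-0.45 ± 0.09), a call lost in 4 of 4 fits without 1 WT or KO library. Prdm1, which encodes the repressor BLIMP-1 that excludes Bcl6, had -0.05 ± 0.18 (adjusted p = 0.878). Of these 15 genes limma called 1 in the normalized table, Id2 (0.83, adjusted p = 0.0486), and the median log2 change was -0.11. Il2ra had -0.64 and Tbx21 0.21 there, neither called.

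Of 22 tested genes that act with gp130 or with the interleukin-21 receptor, 2 rose and 2 fell from WT to KO, where 9.41% of all genes tested rose and 3.46% fell. The STAT3 feedback inhibitor Socs3 fell by 0.39 on the log2 scale, from 223 and 233 CPM in WT to 165 and 182 in KO (edgeR, adjusted p = 0.0277), and its relative Socs1 by 0.33 (adjusted p = 0.0447). In KO EAE, Socs3 had 240 and 230 CPM, above both KO libraries, a difference of 0.44 ± 0.08 that was not called (adjusted p = 0.397). Ptpn11, which encodes the gp130-associated phosphatase SHP2, rose by 0.43 ± 0.08 (adjusted p = 0.0214) and Il27, a cytokine subunit read through gp130, by 2.84 ± 0.62 at no more than 1.53 CPM. The receptor of interleukin-21, Il21r, had -0.26 ± 0.09 (adjusted p = 0.13) and Stat3 had -0.16 ± 0.08 (adjusted p = 0.267). Limma called 0 of 19 tested genes of this list in the normalized table, with a median log2 change of -0.23. Socs3 had -0.81 there, Socs1 -0.625 and Ptpn11 0.10. All 4 calls of this list were lost without any 1 WT or KO library (highest adjusted p 0.153 to 0.322).

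Among relatives of Cebpa and Sh2d1a, several genes known from myeloid or natural killer (NK) cells rose. Of 5 tested C/EBP family genes 1 rose from WT to KO, Cebpd, by 3.66 ± 0.41, from 0.75 and 0.673 CPM to 10.3 and 7.84 (edgeR, adjusted p = 0.00257); Cebpb had -0.21 ± 0.12. Of 13 SLAM family genes and SAP relatives 4 rose and 2 fell. For both lists, the shares over all genes tested were 9.41% risen and 3.46% fallen. Slamf8, a SLAM family gene of macrophages, rose by 4.55 ± 0.43, and Sh2d1b1, the SAP relative EAT-2 of NK and dendritic cells, by 4.02 ± 0.26. Slamf9 and Cd244, an NK cell receptor, rose by 3.69 ± 0.52 and 3.68 ± 0.40, with Cd244 going from 2.69 and 2.20 CPM to 27.5 and 35.3; the Slamf9 call was lost in 2 of 4 fits without 1 WT or KO library. Slamf1 and, named after its value was seen, Sh2d2a (-0.37 ± 0.09, lost in 4 of 4 such fits) fell. Summed NK markers went from 110 and 100 CPM to 221 and 216 beside the myeloid values above, and their part was not tested. Limma on the normalized table called 0 of 5 C/EBP family genes and 0 of 13 SLAM family genes and SAP relatives. Cebpd had 1.38 there, Slamf8 3.20, Sh2d1b1 0.48, Slamf9 1.52 and Cd244 2.77.

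Markers of other cells were read in every group of the count table. There the defining genes of regulatory T cells were lower outside WT. Foxp3 had 210 and 206 CPM in WT, 164 and 155 in KO, and 163 and 149 in KO EAE (KO against WT -0.38 ± 0.08; edgeR, adjusted p = 0.0254), a call lost in 4 of 4 fits without 1 WT or KO library, and 12 of 14 regulatory T cell markers fell. Foxp3 was not called in the normalized table (KO against WT -0.07 ± 0.14; limma, adjusted p = 0.86), where 3 of 14 regulatory T cell markers fell. The median log2 change of these 14 was -0.78 there and -0.74 in the count table. Conventional T cell markers are a list that shares Il4 and Cd40lg with the follicular genes. In the count table they summed to 423 and 447 CPM in WT, 496 and 563 in KO, and 559 and 534 in KO EAE. Most of each of these sums was Cd4, with 291 and 287 CPM in WT, 278 and 315 in KO, and 305 and 297 in KO EAE. Cd4 was not called (KO against WT 0.04 ± 0.09; edgeR, adjusted p = 0.824). B cell markers summed to 87.6 and 87.3 CPM in WT, 111 and 175 in KO, and 105 and 176 in KO EAE, and plasma cell markers to 112 and 125, 139 and 182, and 148 and 179 CPM. Of 13 B cell markers 1 rose and 1 fell from WT to KO. Cd22 rose (CPM 13.1 and 14.3 to 50.05 and 63.5). Cd72, the more abundant of this pair in WT, fell (CPM 38.0 and 42.1 to 22.2 and 27.4). Both calls were lost in 4 of 4 fits without 1 WT or KO library. Xbp1 made up most of each plasma cell sum, at 104 and 101 (WT), 94.95 and 97.1 (KO), and 100 and 96.2 CPM (KO EAE). Xbp1 was not called (edgeR, KO against WT -0.10 ± 0.07, adjusted p = 0.402). CD8 T cell markers, of which 2 of 4 rose from WT to KO, summed to 35.0 and 31.9 CPM in WT, 46.8 and 54.8 in KO, and 48.5 and 80.5 in KO EAE. Most of each WT sum was Cd8b1, with 25.7 and 24.3 CPM in WT, 17.9 and 21.1 in KO, and 19.4 and 19.05 in KO EAE. Cd8b1 was lower in KO and not called (KO against WT -0.36 ± 0.15; edgeR, adjusted p = 0.18). Gzmk, which rose, had 2.25 and 1.77 CPM in WT, 12.75 and 16.3 in KO, and 15.4 and 35.0 in KO EAE. Erythroid markers, of which all 3 tested rose, summed to 3.44 and 2.26 CPM in WT, 16.6 and 36.3 in KO, and 18.0 and 31.7 in KO EAE. No marker other than Klra8 and the 4 globin genes was at 0 in both libraries of a group. The part of these cells in the levels of Il21, Sostdc1 and Ascl2 was not tested, and in bulk RNA a change in the share of cells of a type cannot be told apart from a change in RNA per cell. Bcl11b itself averaged 422 CPM in WT and 370 in KO (-0.19 ± 0.17, adjusted p = 0.527), and had 404 and 277 CPM in the KO EAE replicates (-0.31 ± 0.17 against WT, adjusted p = 0.313), a count of the whole gene that does not isolate the floxed part.

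The deposited normalized table gave a different picture for the same named groups, and libraries of both tables were compared only by placing values side by side. Of the 9 members 0 were called for KO against WT by limma on log2(value + 1), 1 had an unadjusted p under 0.05, and 0 were called by edgeR on recovered whole reads; limma called 0.181% of all 12149 genes tested (0.14% higher, 0.0412% lower) and 13.1% had an unadjusted p under 0.05. Il21 had normalized values of 685 and 368 in WT and 634 and 531 in KO, so the groups overlapped (0.21 ± 0.32, adjusted p = 0.818). Sostdc1 had 456 and 623 in WT and 806 and 526 in KO, again overlapping (0.29 ± 0.28, adjusted p = 0.691). Cebpa had 54.7 and 66.8 in WT and 67.8 and 58.4 in KO (0.06 ± 0.58, adjusted p = 0.975).

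The WT libraries carried most of the gap between the tables for Il21 and Sostdc1. On reads recovered from the normalized table, the mean level of Il21 was 24.99 CPM in WT and 27.8 in KO, against 1.82 and 34.3 CPM in the count table. Sostdc1 averaged 25.6 CPM in WT and 31.8 in KO there, against 0.248 and 31.8 in the count table. For Cebpa both groups differed between tables, at 2.89 and 3.01 CPM against 24.4 and 55.6. In the normalized table, myeloid markers summed to 450 and 747 CPM (WT) and to 1634 and 1426 (KO). The tables were scaled separately, and the differences between them were not tested.

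**Figure D4:**
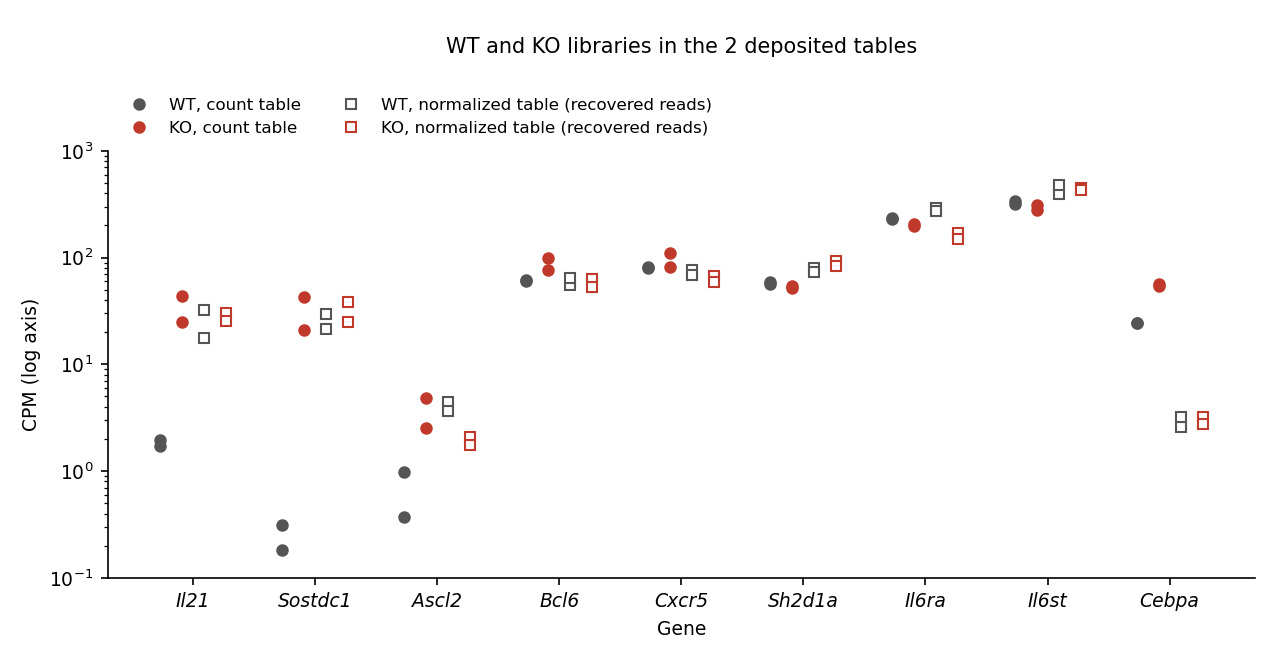
CPM of the 9 members in each WT (grey) and KO (red) library of the count table (filled circles) and of the normalized table (open squares, from recovered reads), on a log axis. WT levels of Il21 and Sostdc1 are low in the count table only, Cebpa is lower in both groups of the normalized table, and Il6ra shows its wider gap between WT and KO in the normalized table.

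Il6ra was the member with the clearest difference between genotypes in the normalized table. Its values were 6160 and 5795 in WT and 3539 and 3111 in KO, with no overlap, a log2 change of -0.85 ± 0.12 (limma, adjusted p = 0.059). The authors' deposited table lists Il6ra at -0.77 with an adjusted p of 1.03e-07, and lists the other members between -0.23 (Ascl2) and 0.20 (Sostdc1) with adjusted p from 0.652 to 0.989. A pseudocount of 5 took Il6ra past the threshold in limma (adjusted p = 0.0403). Ascl2 had 92.9 and 76.5 in WT and 43.8 and 36.9 in KO, lower in both KO libraries, where the count table had it higher (-1.05 ± 0.59, adjusted p = 0.481). Sh2d1a had 1679 and 1522 in WT and 1971 and 1756 in KO (0.22 ± 0.15, adjusted p = 0.559), also the opposite order to the count table. Bcl6, Cxcr5 and Il6st had log2 changes of -0.05, -0.22 and 0.03 (adjusted p = 0.931, 0.588 and 0.938). Groups lay apart for 4 of 9 members, against 45.7% of all genes tested (23.3% higher, 22.4% lower). Bcl11b was lower in the KO libraries of this table by 0.88 on the log2 scale (adjusted p = 0.065).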

How the data were processed

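Sorted regulatory T cells had been sequenced in 6 libraries. HISAT2, HTSeq and DESeq2 with mm10 are named, per the submitters' processing notes; the sources used here state no version, annotation, counting mode or strand setting. Of 3 tables that the authors deposited, a count table gives unnormalized reads per gene (14663542 to 16904312 reads a library). A normalized table gives the authors' signal for WT and KO, reads times a constant per library; 100% of its values above 0 were whole multiples of 1 read (tolerance 0.02 reads), so 16884434 to 25335011 reads a library were recovered. A comparison table, per the file headers, holds the authors' mean signal, log2 fold change, test score and p-values.

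Rows named by a number or date were left out (25 and 27; at most 0.217% of reads and 0.284% of signal). For counts the test was that of edgeR 4.0.16 under R 4.3.3 (filterByExpr with minimum count 10 and total 15, TMM, quasi-likelihood test, 1 coefficient per group over 6 libraries, 3 residual degrees of freedom), with Benjamini-Hochberg adjustment over all 14548 genes and a threshold of 0.05. SEs are approximate, from the log2 change and the square root of F. The normalized table was tested with limma 3.58.1 (trend) on log2(value + 1) for genes with a mean of at least 10, so a fold change of a low gene is understated there. DESeq2 1.42.0, other scalings, filters and pseudocounts, a replicate block and leaving out each library were alternatives. Steps were tested on simulated data. No 2 libraries of a group were alike within counting noise, as repeat deposits of 1 library would be (chi-square per degree of freedom 16.5 to 32.0); this does not show that they came from different mice. Counting intervals and the floor of 3 reads cover counting error only.

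Of 188 list genes all but Ahsp matched the count table, Folr4 by a synonym. Positions and exon lengths are from GENCODE M21 (mm10). The members and the lists were chosen with earlier results of these data known. Marker lists are given as sums, and Cd4, Xbp1, Cd22, Cd72, Cd8b1 and Gzmk are named for their weight in them. Named genes are otherwise the members, Bcl11b and Foxp3, and the genes most like Il21, Sostdc1 and Cebpa by centred log2(CPM + 0.5). This rule adds the 4 largest called changes per list for KO against WT and 2 for KO EAE against KO. The values of 1 gene that this rule names are not reported here.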

Additional observations from a re-analysis of the deposited data

How the results depend on the processing

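With 2 libraries a group, precision is limited, and scarce genes (Sostdc1 in WT, Ascl2) rest on few reads. For KO against WT, 3 members were called; DESeq2 called 5 and a fit of the 2 groups alone 5, adding Bcl6 and Ascl2, and leaving out a library gave 2 to 5. For KO EAE against WT the 3 calls became 2 to 5 without a library, and for KO EAE against KO they stayed at 0 in each such fit. In the normalized table a pseudocount of 5 gave 1 member and the replicate block 1, both Il6ra, and leaving out a library gave 0. Over all genes, KO against WT had 1873 calls, 3121 with the 2 groups alone and 846 to 3087 without a library; KO EAE against WT had 1362, 2227 by DESeq2, 782 with the 2 groups alone and 603 to 3762 without a library; KO EAE against KO had 2, 167 by DESeq2, 0 with the 2 groups alone, 0 with the block and 0 to 313 without a library. The normalized table had 22, 9 with pseudocount 0.5, 45 with pseudocount 5, 1 with no filter, 12 by edgeR on recovered reads, 90 with the block and 0 to 71 without a library. The causes were not tested.

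Signs turned only for uncalled changes. For KO EAE against KO, Cxcr5 became -0.017 by DESeq2 and -0.019 with no filter (-0.19 to 0.23 without a library), and with the 2 groups alone Cebpa became 0.012 and Il6ra 0.0018 (-0.072 to 0.072 and -0.11 to 0.087 without a library). Without a library Il21 ranged from -0.22 to 0.57, Ascl2 from -1.15 to 0.41 and Il6st from -0.36 to 0.077 there, and Sh2d1a from -0.00279 to 0.075 for KO EAE against WT. In the normalized table Il21 ranged from -0.24 to 0.65, Bcl6 from -0.17 to 0.081, Sostdc1 from -0.0197 to 0.60, Cebpa from -0.085 to 0.20 and Il6st from -0.11 to 0.17. Cd4 ranged from -0.0555 to 0.13 for KO against WT.

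Replicate numbers are shared between groups. In counts, deviations of same-numbered libraries correlated at 0.01 for WT and KO, -0.09 for WT and KO EAE, and 0.20 for KO and KO EAE. In normalized values the correlation for WT and KO was 0.02. Such correlations over all genes cannot show whether same-numbered libraries share a batch or a pairing, which was not tested. With the replicate block 4 members were called for KO against WT, adding Bcl6 (adjusted p = 0.0489), and 1668 genes.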

Other observations

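Genes of the BMP and WNT pathways, which Sostdc1 antagonises, were measured beside it. Of 16 tested, 3 rose and none fell from WT to KO by edgeR, where 9.41% of all genes tested rose and 3.46% fell. The median log2 change was 0.23, against -0.01 over all genes tested. Lrp4, a membrane receptor that binds sclerostin family proteins, rose by 4.06 ± 0.21, from 2.69 and 2.75 CPM in WT to 45.4 and 45.4 in KO (edgeR, adjusted p = 0.00012), with 25.3 and 34.6 CPM in KO EAE. Lrp5, a WNT co-receptor, rose by 1.98 ± 0.12, from 26.2 and 21.6 to 89.3 and 99.0 CPM, and the BMP type I receptor gene Acvr1 by 1.48 ± 0.26, a call lost in 4 of 4 fits without 1 WT or KO library. Lrp6, a relative of Lrp5, had -0.20 ± 0.13 (adjusted p = 0.35). Myeloid markers rose in the same libraries, and their part was not tested. In the normalized table limma called 0 of 11 tested genes of these pathways, with a median log2 change of -0.12. Lrp4 was not among these 11. Lrp5 had 2.23 there and Acvr1 -1.94, neither called (limma, adjusted p = 0.41 and 0.467).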
